A study of Mus musculus with 10 samples.

Results

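The gene group described here holds 10 genes that set the pace of the G1 phase of the cell cycle or respond to p53: the Cdk inhibitors Cdkn2a, Cdkn2b, Cdkn1a and Cdkn1b, the D-type cyclins Ccnd1, Ccnd2 and Ccnd3, the kinases Cdk4 and Cdk6, and Trp53. They were chosen by symbol from 55385 gene identifiers, and all 10 were among the 13620 genes tested. Their messenger RNA was compared between WT31, a mouse melanoma line from Tyr::NrasQ61K/°; INK4a-/- animals, and WT31_P5IV, the subline obtained from it by 5 rounds of injection into the tail vein and recovery from liver metastases. Both were untreated cells grown sub-confluent in RPMI medium with 10% fetal calf serum, and 5 libraries, given as biological replicates, were made of each. Both groups carry mutant Nras from the Tyr (tyrosinase) transgene and the INK4a-/- allele, which lies in the Cdkn2a gene, so that neither serves as a wild-type control for Cdkn2a. WT31_P5IV is 1 subline, so that the tests measure the spread between libraries of 2 cell populations and not between separate passaging series. The comparison asks which of these genes differed in cultured cells after hepatic passaging.

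D-type cyclins bind Cdk4 and Cdk6, and the active kinases phosphorylate the retinoblastoma protein, which releases E2F factors and lets cells enter S phase. INK4 inhibitors (p16INK4a from Cdkn2a, p15 from Cdkn2b) bind Cdk4 and Cdk6, whereas the CIP/KIP inhibitors p21 (Cdkn1a) and p27 (Cdkn1b) bind cyclin-Cdk complexes, chiefly those of Cdk2. Cdkn2a also encodes ARF from a separate first exon, a protein that restrains Mdm2 and so stabilises p53, and loss of this locus and activation of the RAS-cyclin D axis are common events in melanoma.

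Libraries held 24255389 to 25750639 estimated counts, and values are given as CPM, the read count relative to the library's total, after scaling of the libraries by the trimmed mean of M values (TMM). A floor of 3 counts equalled 0.114 to 0.129 CPM, and it covers counting error only. All 8 melanocyte markers exceeded 1 CPM in every library, with a summed level of 19058 to 20756 CPM in WT31 and 25509 to 29556 CPM in WT31_P5IV. Dct (means of 5893 and 10233 CPM), Pmel (1860 and 4330 CPM), Gpnmb and Tyr were higher in the subline. Tyrp1 (3041 and 1564 CPM) and Sox10 (854 and 777 CPM) were lower in their means, and Mlana and Mitf differed by less than their spread. The summed markers of hepatocytes (0.353 to 0.792 CPM in WT31 and 0.496 to 1.43 CPM in WT31_P5IV) and leukocytes (5.07 to 6.80 and 4.79 to 7.10 CPM) overlapped between the groups. Within the leukocyte sum the groups did not overlap for Cd68 (20 to 50 counts for WT31, 80 to 117 for the subline) or, in the opposite direction, for Lyz2 (92 to 129 counts, then 21 to 30), while Ptprc, Cd3e and Adgre1 had at most 2 counts in any library. Those of endothelial cells (0.747 to 1.29 and 1.35 to 2.27 CPM) and of stellate cells and fibroblasts (3.44 to 4.39 and 4.42 to 5.35 CPM) were low but higher in WT31_P5IV without overlap. Acta2 (0.275 and 0.758 CPM), Col1a1 (0.868 and 1.73 CPM) and, of the endothelial list, Fcgr2b (0.617 and 1.08 CPM) and Vwf (0.140 and 0.292 CPM) were higher in their means. Stab2, also of the endothelial list (0.125 and 0.0754 CPM), and Pdgfra, Pdgfrb, Des, Lrat and Dcn had lower means in WT31_P5IV. The part of these markers in the results was not tested. Among the defining markers Serpina1a, Krt18, Clec4f, Cdh5 and Lyve1 were at 0 counts in all 10 libraries. Replicates are numbered as in the sample titles, whereas the sample descriptions give WT31 replicates 3, 4 and 5 as 4, 5 and 6. WT31 replicates 2 and 3 stood apart from the other WT31 libraries on the first principal component within the group, which held 40.9% of the variance. Across 13620 genes the difference of these 2 libraries from the other 3 rose with transcript length (Spearman's rho 0.51, over genes of the same libraries), from a median of -0.12 on the log2 scale among the shortest transcripts to 0.13 among the longest (3 classes of equal size). Both libraries were the lowest of WT31 for 6 members (Cdkn2a, Cdkn2b, Cdkn1a, Ccnd3, Cdk4 and Trp53) and the highest for 2 (Ccnd2 and Cdk6). Without these 2 libraries the log2 fold change moved from 0.09 to 0.02 for Cdkn2a, from -0.23 to -0.31 for Cdkn1a and from -0.58 to -0.68 for Ccnd3 with the same calls, and the values of Cdkn2b, Cdk6, Cdk4 and Trp53 without them are given beside their results.

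Of the 10 members, 7 passed an adjusted p of 0.05 (edgeR's quasi-likelihood test, Benjamini-Hochberg adjusted across the whole table), 6 lower and 1 higher in WT31_P5IV. Among all tested genes 68.5% were called, 33.9% lower and 34.6% higher, so that the share of members called was near the background. All 3 D-type cyclins, Cdk6, Cdkn1a and Cdkn2b fell, Cdkn1b rose, and Cdkn2a, Cdk4 and Trp53 did not pass the test. The median log2 fold change was -0.22 over the members and 0.01 over all tested genes, and the median size regardless of sign was 0.24 and 0.30. The groups did not overlap for Cdkn1b, Ccnd1, Ccnd2, Ccnd3 and Cdk6, 1 higher and 4 lower, against 54.1% of all tested genes, 26.6% higher and 27.5% lower. Only Ccnd2, which was lower, also passed a log2 fold change of 1 in size. Of all tested genes 9.19% did so, 3.69% in the lower direction.

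**Figure D1:**
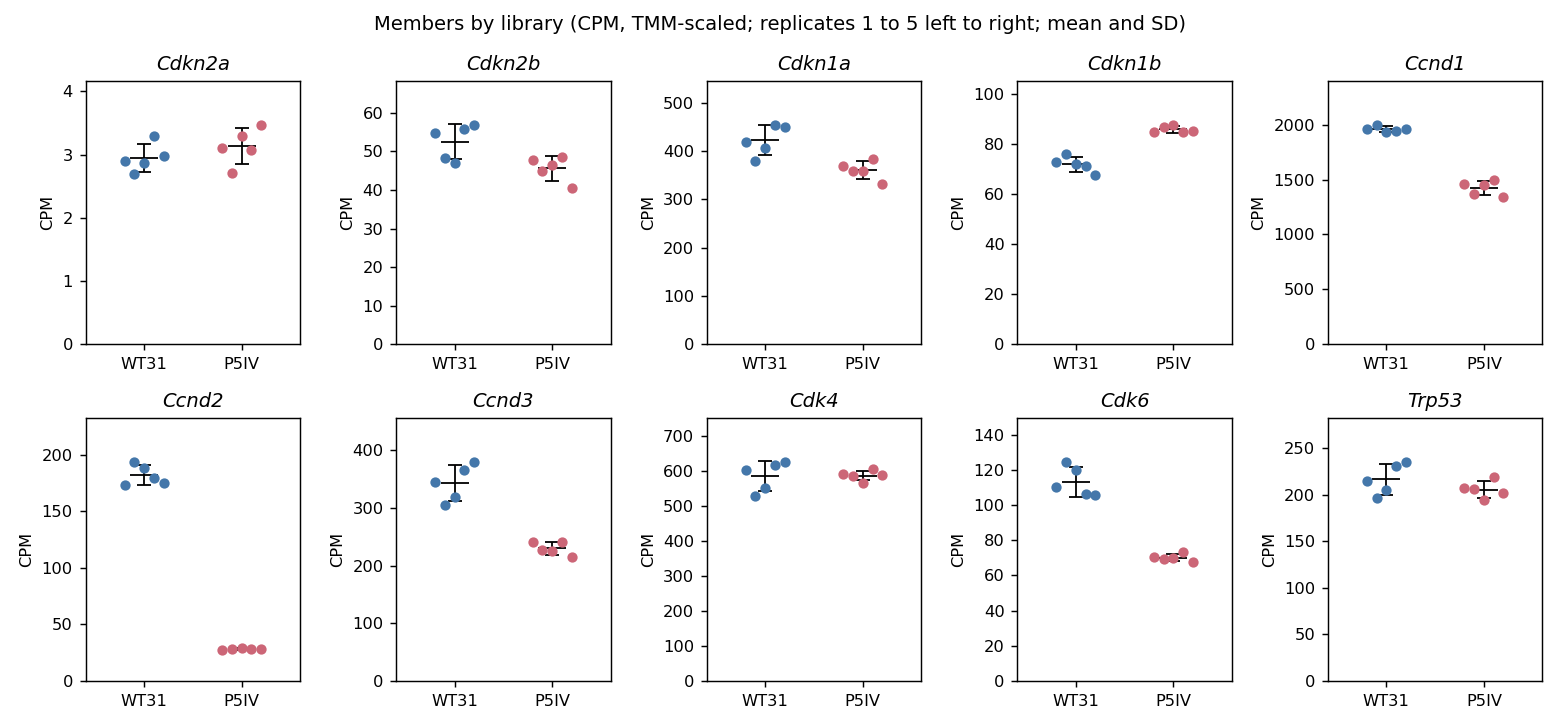
CPM (TMM-scaled, linear axis from 0) of the 10 members, 1 point per library, with WT31 in blue and WT31_P5IV in red and the mean and SD of 5 libraries in black. Ccnd2 fell from between 173 and 194 CPM to between 27.6 and 29.1 CPM, whereas the groups of Cdk4, Trp53 and Cdkn2a lie over each other.

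Promoter sequence is shown for 3 members. Cdkn2a is transcribed from 2 separate starts, and the deposited counts and TPM allow the split of TPM between their transcripts to be inferred, as described below. Cdkn1a fell while Trp53, whose protein acts on its promoter, did not pass the test. Cdk4 did not pass the test either, and among the 8 members with a promoter window its window was the richest in CACGTG. Myc and Mitf are known to bind this E-box word. The windows run from 250 bases before to 50 bases after the RefSeq start (GRCm38.p6) and are written 5′ to 3′ on the strand of the gene. They were matched for 8 of the 10 members, with 11 starts in all, and Ccnd1 and Ccnd2 had no window. Capitals mark GGGCGG for Cdkn2a, the p53 response element for Cdkn1a and CACGTG for Cdk4, each searched on both strands.

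Cdkn2a, upstream (ARF) start, chr4:89294570-89294869, minus strand: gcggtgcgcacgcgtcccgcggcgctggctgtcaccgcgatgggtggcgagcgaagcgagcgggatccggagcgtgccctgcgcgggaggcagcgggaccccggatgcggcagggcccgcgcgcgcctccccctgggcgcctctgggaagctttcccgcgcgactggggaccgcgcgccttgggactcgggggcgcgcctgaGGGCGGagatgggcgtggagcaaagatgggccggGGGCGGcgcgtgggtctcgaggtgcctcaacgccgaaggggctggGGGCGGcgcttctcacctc

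Cdkn2a, downstream (INK4a) start, chr4:89282143-89282442, minus strand: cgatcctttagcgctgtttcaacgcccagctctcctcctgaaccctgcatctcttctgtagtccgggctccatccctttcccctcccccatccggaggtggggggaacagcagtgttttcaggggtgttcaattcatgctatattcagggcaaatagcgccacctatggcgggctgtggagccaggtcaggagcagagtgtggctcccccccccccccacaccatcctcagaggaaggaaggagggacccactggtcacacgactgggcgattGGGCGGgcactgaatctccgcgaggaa

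Cdkn1a, upstream start, chr17:29090729-29091028, plus strand: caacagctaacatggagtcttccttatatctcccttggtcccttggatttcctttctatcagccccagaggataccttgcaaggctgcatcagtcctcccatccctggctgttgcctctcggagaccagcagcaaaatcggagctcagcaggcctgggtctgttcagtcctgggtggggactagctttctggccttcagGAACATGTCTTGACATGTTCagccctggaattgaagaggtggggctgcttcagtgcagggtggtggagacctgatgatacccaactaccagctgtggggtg

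Cdk4, chr10:127063285-127063584, plus strand: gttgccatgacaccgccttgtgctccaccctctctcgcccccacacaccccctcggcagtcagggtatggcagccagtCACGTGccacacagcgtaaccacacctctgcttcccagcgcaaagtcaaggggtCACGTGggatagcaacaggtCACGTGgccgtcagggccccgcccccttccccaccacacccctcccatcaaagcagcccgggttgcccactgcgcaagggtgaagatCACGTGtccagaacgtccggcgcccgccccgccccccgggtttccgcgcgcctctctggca

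The p53 element was searched as 2 adjacent half-sites of 10 bases with at most 1 mismatch outside their cores, a form held by 0.0548% of the 32851 promoter windows. Among the windows of the 8 members searched, the only match lay at chr17:29090928-29090947 in the window of the upstream Cdkn1a start, ending 32 bases before that start. It lay 2822 bases before the second RefSeq start of Cdkn1a, whose own window held 0 matches. The word CACGTG occurred 4 times in the Cdk4 window and 1 time each in those of Cdk6 and Trp53, against 7.15% of all windows with at least 1. GGGCGG occurred in 35.7% of all windows, and the upstream Cdkn2a window held it 3 times and the downstream one 1 time. These matches describe letters only, and no binding was measured.

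Of Cdkn2a and Cdkn2b, the latter, which encodes the p15 inhibitor, was the more abundant per length, and it fell. Cdkn2b (chr4:89306299-89311039, minus strand) measured 54.7, 48.3, 46.9, 55.9 and 56.9 CPM in the 5 WT31 libraries and 47.8, 44.8, 46.5, 48.6 and 40.4 CPM in those of WT31_P5IV. Replicates 2 and 3 of WT31 lay within the range of the subline, and the other 3 above it. Cdkn2b thus fell with a log2 fold change of -0.20 ± 0.06 (SE), which corresponds to a 1.15-fold lower level (adjusted p = 0.00992 in edgeR), and it was -0.31 without WT31 replicates 2 and 3. Per length, Cdkn2b stood at 65.5 ± 3.96 TPM (SD, n = 5) in WT31 and 50.4 ± 3.14 TPM in WT31_P5IV. On log2(TPM + 0.1) its log2 fold change was -0.38, on a scale that moved the values of all tested genes by a median of -0.17.

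Cdkn2a (chr4:89274471-89294653, minus strand), the locus of the INK4a-/- allele, still gave reads in every library. It measured 2.90, 2.69, 2.86, 3.30 and 2.97 CPM in WT31 and 3.11, 2.70, 3.30, 3.07 and 3.47 CPM in WT31_P5IV, from 63 to 84 counts per library, well above the floor of 3 counts. The groups overlapped over nearly their whole range. The log2 fold change was 0.09, with a 95% interval from -0.13 to 0.31 (adjusted p = 0.446 in edgeR), so that a change of more than 1.24-fold upwards lay outside the interval.

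Which Cdkn2a transcript the reads were assigned to can be worked out from the deposited values. Count divided by TPM gives the mean length of the transcripts behind a gene's value, and for 357 genes with 1 annotated transcript this returned the annotated length to within 0.25 bases in all libraries. For Cdkn2a it gave 877 to 884 bases, between the 852 bases of the transcript from the downstream INK4a start (Cdkn2a-201) and the 895 bases of that from the upstream ARF start (Cdkn2a-202). The share of Cdkn2a TPM on the ARF-start transcript was thus 71.8%, 67.2%, 68.5%, 60.4% and 57.1% in WT31 and 63.4%, 75.1%, 68.1%, 62.9% and 66.5% in WT31_P5IV. The means of 65.0% ± 6.05 and 67.2% ± 4.90 (SD, n = 5) differed by less than the spread between libraries. In both groups the quantification thus assigned Cdkn2a TPM to both transcripts, with the larger share on the ARF-start transcript, from 63 to 84 counts per library. The labels do not say which exons the allele removes, and the transcripts share exons and sums per gene do not show where in a transcript the reads lay, so that reads at either start were not shown. None of the 31-base words of Cdkn2a or Cdkn2b, the length the pseudoaligner matches, occurs in transcripts of another gene.

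Genes next to the locus were examined for comparison. Of all tested genes 33.9% were lower and 34.6% higher. Of 6 tested genes of the list, which includes both INK4 genes, 5 were lower, 0 were higher in edgeR, in DESeq2 and at an unadjusted p of 0.05, and Cdkn2a was not called, with a median log2 fold change of -0.37. Under each alternative run 5 genes of this list were lower. Mtap, which recycles methylthioadenosine, fell from 233 ± 3.1 to 161 ± 6.0 CPM (log2 fold change -0.53). Dmrta1 fell from 6.10 to 3.47 CPM (-0.82) and Elavl2, a neuronal RNA-binding protein, from 5.26 to 1.04 CPM (-2.35), both at low levels. Ifna1 and Ifnb1 were at 0 counts in all libraries.

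The CIP/KIP inhibitors moved in opposite directions on the count scale. Cdkn1a (chr17:29090976-29100727, plus strand), the p21 gene and a standard p53 target, measured 419, 379, 406, 454 and 450 CPM in WT31 and 369, 359, 358, 383 and 332 CPM in WT31_P5IV. The groups touched at 1 point, since the highest library of the subline lay just above WT31 replicate 2. Cdkn1a fell with a log2 fold change of -0.23 ± 0.05 (SE), or 1.17-fold lower (adjusted p = 0.00130 in edgeR). The mean length behind the Cdkn1a value was 1902 bases in both groups, so that no shift between its transcripts was seen. Per length, Cdkn1a fell from 368 ± 17.0 to 279 ± 11.5 TPM (SD, n = 5), and its log2 fold change on log2(TPM + 0.1) was -0.40. That scale moved the values of all tested genes by a median of -0.17.

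Cdkn1b (chr6:134920401-134925513, plus strand), the p27 gene, was the single member called higher in WT31_P5IV. It measured 72.9, 76.0, 72.1, 71.2 and 67.6 CPM in WT31 and 85.0, 86.8, 87.7, 84.7 and 85.5 CPM in WT31_P5IV, and the groups did not overlap. The increase amounted to 0.26 ± 0.04 (SE) on the log2 scale, or 1.19-fold (adjusted p = 1.94e-05 in edgeR). In TPM it did not pass the test: Cdkn1b stood at 39.1 ± 2.06 TPM in WT31 and 39.9 ± 0.938 TPM in WT31_P5IV, and limma on log2(TPM + 0.1) gave a log2 fold change of 0.03 (adjusted p = 0.569). The mean length behind its value was 2943 ± 46.9 bases in WT31 and 3048 ± 32.9 bases in WT31_P5IV, and the TPM scale moved the log2 fold changes of all 13620 genes by a median of -0.17. With an offset for transcript length in edgeR, which keeps the scaling between libraries, Cdkn1b remained called at 0.17 (adjusted p = 9.15e-04). Together the CIP/KIP pair summed to 407 ± 15.2 TPM in WT31 and 318 ± 11.0 TPM in WT31_P5IV, of which Cdkn1a made up 90.4% and 87.5%.

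The D-type cyclins fell in all 3 cases, and Ccnd2 fell by far the most. Ccnd2 (chr6:127125162-127152193, minus strand) measured 173, 194, 188, 179 and 175 CPM in WT31 and 27.6, 28.1, 29.1, 28.05 and 28.4 CPM in WT31_P5IV. The lowest WT31 library lay at several times the level of the highest library of the subline. This was a log2 fold change of -2.69 ± 0.04 (SE), a 6.44-fold lower level with a 95% interval of the log2 value from -2.78 to -2.60 (adjusted p = 1.32e-15 in edgeR). Of all tested genes 98.6% had a smaller change in either direction. The mean length behind the Ccnd2 value went from 6101 ± 73.3 bases in WT31 to 5528 ± 313 bases in WT31_P5IV, so that more of the Ccnd2 mRNA counted in the subline was assigned to shorter annotated transcripts.

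Ccnd1 (chr7:144929931-144939925, minus strand), the cyclin D1 gene, measured 1963, 1999, 1935, 1939 and 1958 CPM in WT31 and 1458, 1372, 1446, 1494 and 1344 CPM in WT31_P5IV, with no overlap and a narrow spread within both groups. Its log2 fold change was -0.46 ± 0.04 (SE), or 1.38-fold lower (adjusted p = 4.84e-08 in edgeR). Of its 31-base words 22.3% also occur in other genes, mainly the neighbouring LTO1, which stood at 13.3 TPM in WT31, beside the 834 TPM of Ccnd1.

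Ccnd3 (chr17:47505051-47599691, plus strand), the cyclin D3 gene, measured 345, 305, 319, 366 and 380 CPM in WT31 and 241, 226, 226, 241 and 215 CPM in WT31_P5IV. The groups did not overlap, although WT31 varied more than the subline. Ccnd3 fell with a log2 fold change of -0.58 ± 0.06 (SE), or 1.49-fold lower (adjusted p = 5.23e-07 in edgeR). Transcripts of Bysl and of the pseudogene Ccnd3-ps share part of its sequence, and Bysl stood at 27.2 TPM in WT31 and 24.0 TPM in WT31_P5IV and Ccnd3-ps at no more than about 1 count per library.

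Per length, the summed D-type cyclin mRNA went from 1201 ± 12.7 TPM in WT31 to 740 ± 28.7 TPM in WT31_P5IV (SD, n = 5). Ccnd1 made up 69.4% of this sum in WT31 and 72.8% in WT31_P5IV, Ccnd3 26.7% and 26.2%, and Ccnd2 3.83% and 0.951%. The gene with the steepest fall was thus also the scarcest of the 3 per length, and Ccnd1 accounted for most of the fall of the sum in TPM, with 834 ± 30.8 TPM in WT31 and 539 ± 22.8 TPM in WT31_P5IV. These sums and shares were not tested, and the TPM scale moved the log2 fold changes of all tested genes by a median of -0.17.

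**Figure D2:**
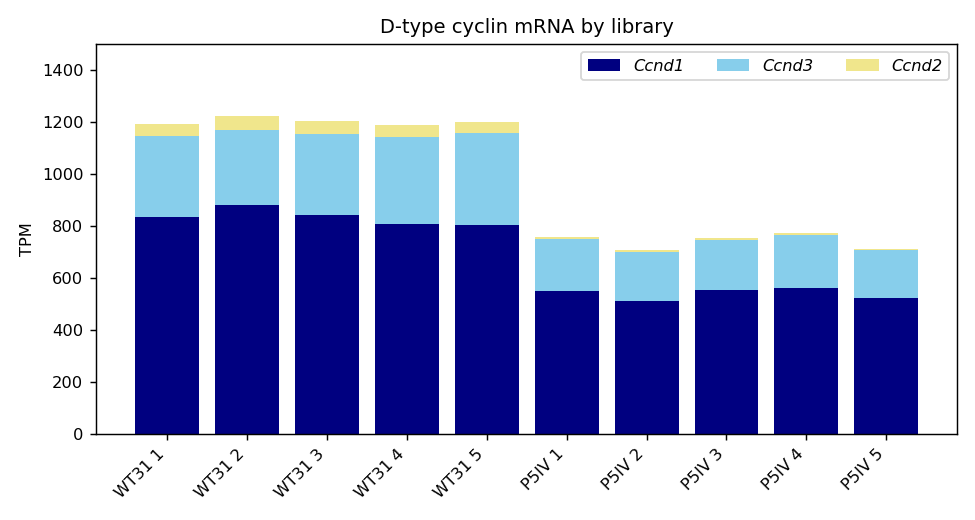
TPM of Ccnd1, Ccnd3 and Ccnd2 stacked for each of the 10 libraries (linear axis from 0, 1 bar per library). The bars reach 1189 to 1221 TPM in WT31 and 707 to 772 TPM in WT31_P5IV, and Ccnd2 is the thin top layer.

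The kinases differed from each other. Cdk6 (chr5:3341485-3531008, plus strand) measured 110, 125, 120, 106 and 105 CPM in WT31 and 70.4, 69.1, 69.7, 73.0 and 67.8 CPM in WT31_P5IV, with no overlap. Cdk6 fell with a log2 fold change of -0.69 ± 0.05 (SE), or 1.62-fold (adjusted p = 1.23e-08 in edgeR), and the value was -0.63 without WT31 replicates 2 and 3, the highest libraries for this long transcript. Per length Cdk6 was scarce, with 16.5 ± 1.72 TPM in WT31 and 9.27 ± 0.651 TPM in WT31_P5IV.

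Cdk4 (chr10:127063534-127067920, plus strand) measured 602, 529, 553, 616 and 628 CPM in WT31 and 591, 587, 566, 605 and 588 CPM in WT31_P5IV. All libraries of the subline lay within the range of WT31. Its log2 fold change was 0.01, with a 95% interval from -0.10 to 0.11 (adjusted p = 0.932 in edgeR). Its sign depended on the scale and the libraries: without WT31 replicates 2 and 3 the log2 fold change was -0.08 (adjusted p = 0.0481 in edgeR), and on log2(TPM + 0.1) it was -0.26 (adjusted p = 2.97e-04 in limma), beside a median of -0.14 for all genes on that scale. With the length offset Cdk4 stood at -0.12 (adjusted p = 0.0679 in edgeR). Cdk4 shares 19.5% of its 31-base words with other genes, chiefly Tspan31, which overlaps its end and stood at 133 TPM in WT31 and 168 TPM in WT31_P5IV, and the mean length behind the Cdk4 value went from 1240 ± 20.2 to 1308 ± 45.3 bases. How reads were divided between the pair was not tested.

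Per length, Cdk4 stood at 836 ± 46.6 TPM in WT31 and 698 ± 28.4 TPM in WT31_P5IV, and Cdk6 made up 1.95% of the kinase pair in WT31 and 1.31% in WT31_P5IV. The ratio of summed D-type cyclin to summed kinase mRNA in TPM was 1.41 ± 0.0932 in WT31 and 1.05 ± 0.0110 in WT31_P5IV. The ratio of CIP/KIP to D-type cyclin mRNA was 0.339 in WT31 and 0.430 in WT31_P5IV, without overlap between libraries. Both ratios are free of the scaling between libraries, and neither was tested.

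Trp53 (chr11:69580359-69591873, plus strand) measured 215, 197, 205, 231 and 235 CPM in WT31 and 207, 205, 194, 218 and 202 CPM in WT31_P5IV. The groups overlapped, with WT31 replicates 1, 2 and 3 inside the range of the subline and the other 2 above it. The log2 fold change was -0.08, with a 95% interval from -0.19 to 0.03 (adjusted p = 0.197 in edgeR). The call rested on these libraries, since the log2 fold change was -0.12 without WT31 replicate 2 (adjusted p = 0.0326) and -0.16 without both (adjusted p = 0.00353), also in edgeR. Total-count scaling gave -0.15 (adjusted p = 0.0178). Of the 31-base words of Trp53 10.2% occur elsewhere, mostly in the pseudogene Trp53-ps, which had 0 counts in all libraries.

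Ordered per length, the levels of the members in WT31 were led by Cdk4 and Ccnd1, at 836 ± 46.6 and 834 ± 30.8 TPM, which did not differ beyond their spread. Cdkn1a (368 ± 17.0 TPM), Ccnd3 (321 ± 24.2 TPM), Trp53 (203 ± 9.85 TPM) and Cdkn2b (65.5 ± 3.96 TPM) followed. Ccnd2 (46.0 ± 3.10 TPM) and Cdkn1b (39.1 ± 2.06 TPM) came next, with Cdk6 (16.5 ± 1.72 TPM) and Cdkn2a (6.41 ± 0.378 TPM) last. In WT31_P5IV Cdk4 at 698 ± 28.4 TPM stood above Ccnd1 at 539 ± 22.8 TPM in all libraries, and Ccnd2 at 7.04 ± 0.522 TPM dropped below Cdk6 (9.27 ± 0.651 TPM) to near the level of Cdkn2a (6.02 ± 0.676 TPM).

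**Figure D3:**
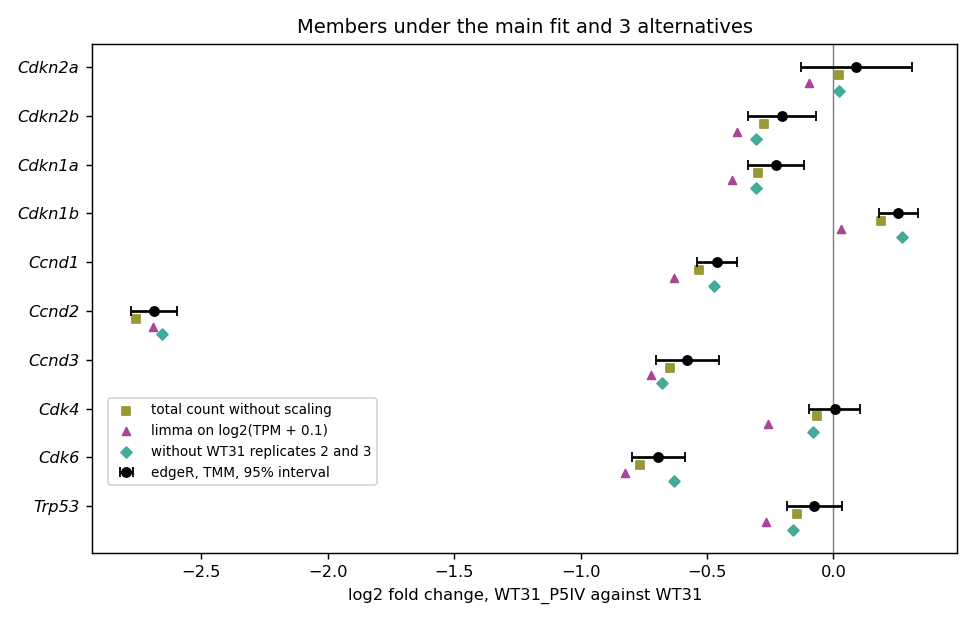
Log2 fold change of each member, WT31_P5IV against WT31, with 0 marked (edgeR with TMM, black, 95% interval) and under 3 alternatives (coloured symbols). Ccnd2 lies near -2.69 in all of them, Cdkn1b moves from 0.26 to 0.03 on log2(TPM + 0.1), and Cdk4 moves from 0.01 to -0.26.

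Further genes of the pathway were taken from lists chosen with earlier results of these data known, so that their counts are descriptive. The shares of all tested genes called, 34.6% higher and 33.9% lower, stand as their background. The other Cdk inhibitors Cdkn2c (81.3 and 83.2 CPM, log2 fold change 0.03), Cdkn2d and Cdkn1c did not pass the test in edgeR (0 of 3, also at an unadjusted p of 0.05 and in DESeq2), and 1 of them was called lower on log2(TPM + 0.1) and in edgeR without WT31_P5IV replicate 1. All 3 subunits of the Cdk-activating kinase, which phosphorylates the Cdks, fell: Cdk7 by 0.42, Mnat1 by 0.42 and Ccnh by 0.22 on the log2 scale, with 0 higher, also at an unadjusted p of 0.05 and in DESeq2, and 2 lower with an offset for transcript length.

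Downstream of the D-type cyclins, genes of the E2F pathway moved in both directions. Of the retinoblastoma family, Rb1 (log2 fold change -0.20) and Rbl2 (-0.28) fell and Rbl1 (0.19), a gene that cycling cells induce, rose, and 1 of the 2 falls lost its call with the length offset. On log2(TPM + 0.1) 0 genes of the family were higher. Of 10 E2F and DP factors 2 rose and 4 fell, and 1 was higher and 6 lower on log2(TPM + 0.1), and 1 higher and 5 lower with total-count scaling. The activators E2f1 (75.6 ± 6.0 to 85.8 ± 4.0 CPM, log2 fold change 0.18) and E2f2 (0.40) rose. E2f8, an atypical repressor of E2F targets, had the largest change of the list and fell from 237 ± 5.8 to 109 ± 6.6 CPM (-1.12), and E2f5 (-0.36) and Tfdp2 (-0.19) fell as well. Of 5 cyclin E, cyclin A and Cdk2 genes 2 rose and 2 fell: Cdk2 rose by a log2 fold change of 0.17 and Ccna2 by 0.09, Ccne2 (-0.29) and the phosphatase gene Cdc25a (-0.30) fell, and Ccne1 did not pass the test (0.04). On the TPM scale 0 genes of that list were higher, and 9 of the 10 fits that left out 1 library called 1 gene higher.

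Of 30 E2F targets of S phase 18 rose and 5 fell, with a median log2 fold change of 0.18, whereas 15 were higher without WT31 replicates 2 and 3, 14 higher and 8 lower with total-count scaling, and 10 higher and 11 lower on log2(TPM + 0.1). Prim1, a primase subunit, rose from 57.7 ± 3.2 to 89.7 ± 4.1 CPM (0.63), Mcm2 from 205 ± 5.5 to 277 ± 8.0 CPM (0.44) and the licensing factor gene Cdt1 from 50.1 ± 5.4 to 66.2 ± 2.3 CPM (0.40). Mcm4, of the same helicase as Mcm2, fell from 186 ± 3.8 to 124 ± 1.6 CPM (-0.58), and Pcna rose by 0.12. Of 24 mitosis genes 12 rose and 1 fell, with a median of 0.12. The single lower call was lost in 6 of the 10 fits that left out 1 library (WT31 replicates 1 and 3, WT31_P5IV replicates 1, 3, 4 and 5) and with upper-quartile scaling, which called 15 higher, and on log2(TPM + 0.1) 8 were higher and 6 lower. Mki67, the proliferation marker Ki67, rose from 479 ± 98 to 834 ± 66 CPM (0.80, adjusted p = 1.29e-05 in edgeR), Foxm1, a transcription factor of mitosis genes, from 157 ± 3.0 to 230 ± 5.8 CPM (0.55), Cenpf by 0.40 and Cenpa by 0.38.

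Genes that act on the turnover of p27 and D-type cyclin proteins included 4 that rose and 3 that fell among 13 tested, with a median of -0.04, while log2(TPM + 0.1) gave 1 higher and 7 lower. On the count scale 3 were higher in DESeq2, with total-count scaling, the length offset, the replicate block and in 8 of the 10 fits that left out 1 library, and 2 with all genes of at least 1 count. Likewise 5 genes of the list were lower without WT31 replicate 2, without replicate 3, without both, in DESeq2 and with the replicate block, and 6 with total-count scaling. Gsk3b, a kinase that marks cyclin D1 for degradation, fell from 141 ± 15 to 80.3 ± 1.9 CPM (-0.81), and Skp1a (-0.36) and Usp22 (-0.18) fell too. Fbxo31, a receptor for cyclin D1, rose by 0.26, and Skp2, the receptor for p27, by 0.10 (adjusted p = 0.0461 in edgeR), which is close to the threshold.

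Of 15 regulators of p53 0 rose and 4 fell in edgeR (1 higher at an unadjusted p of 0.05, and 0 in DESeq2), although 1 was higher without WT31 replicate 2, without WT31_P5IV replicate 3 and with upper-quartile scaling, 2 with the replicate block and with the length offset, and 3 without WT31 replicates 2 and 3. The count of lower genes was 4 to 6 over the alternatives. Mdm2, the ligase that degrades p53 and itself a p53 target, fell from 108 ± 2.3 to 88.0 ± 1.7 CPM (-0.30, adjusted p = 1.23e-06 in edgeR) without overlap. The deubiquitinase gene Usp7 fell by 0.33, Crebbp by 0.29 and Ppm1d, a phosphatase that p53 induces, by 0.14. The relatives Trp63 and Trp73 were at or below the floor of 3 counts in all libraries and were not tested.

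Of 34 genes listed as p53 targets 29 were tested, of which 14 fell, 6 rose and 9 did not pass, with a median log2 fold change of -0.15. The count of lower genes was 13 to 18 and that of higher genes 4 to 7 over the alternatives. Gadd45a, a stress and growth arrest gene, fell from 67.8 ± 2.6 to 15.2 ± 1.1 CPM (-2.15, adjusted p = 1.22e-13 in edgeR). Abhd4 fell from 171 ± 9.1 to 91.8 ± 1.5 CPM (-0.90), Rrm2b, the p53-induced ribonucleotide reductase subunit, from 23.7 ± 1.7 to 12.8 ± 0.36 CPM (-0.90), and Ccng1, cyclin G1, from 312 ± 13 to 199 ± 5.2 CPM (-0.65). Gdf15, a secreted stress cytokine that also has other inducers, went the other way and rose from 24.4 ± 4.1 to 52.2 ± 6.5 CPM (1.10). The list thus did not move as a block.

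Upstream of Ccnd1, Cdkn1b and the INK4 locus, 13 of 20 tested factors fell and 3 rose, with a median of -0.15. Myc fell from 117 ± 6.2 to 89.8 ± 5.7 CPM (-0.38, adjusted p = 8.70e-06 in edgeR) and Ets2, a RAS-responsive factor, from 65.5 ± 2.4 to 26.8 ± 1.5 CPM (-1.29). Fos fell by 0.97 at a low level of 1.34 to 0.684 CPM, and Mitf, the melanocyte master regulator, did not pass the test (346 ± 33 and 342 ± 12 CPM, -0.01). Cbx7, a Polycomb protein known to repress Cdkn2a, rose from 2.69 ± 0.32 to 5.89 ± 0.69 CPM (1.13). Tbx3, a T-box repressor of the ARF start, had 212 to 249 counts in the WT31 libraries and 1 to 3 counts in those of WT31_P5IV, at or below the floor of 3 counts, and gave the largest fall of all listed genes. Cdkn2a itself did not pass the test, and the share of its ARF-start transcript differed by less than the spread between libraries. Whether Cbx7 or Tbx3 bears on Cdkn2a in these cells was not tested.

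**Figure D4:**
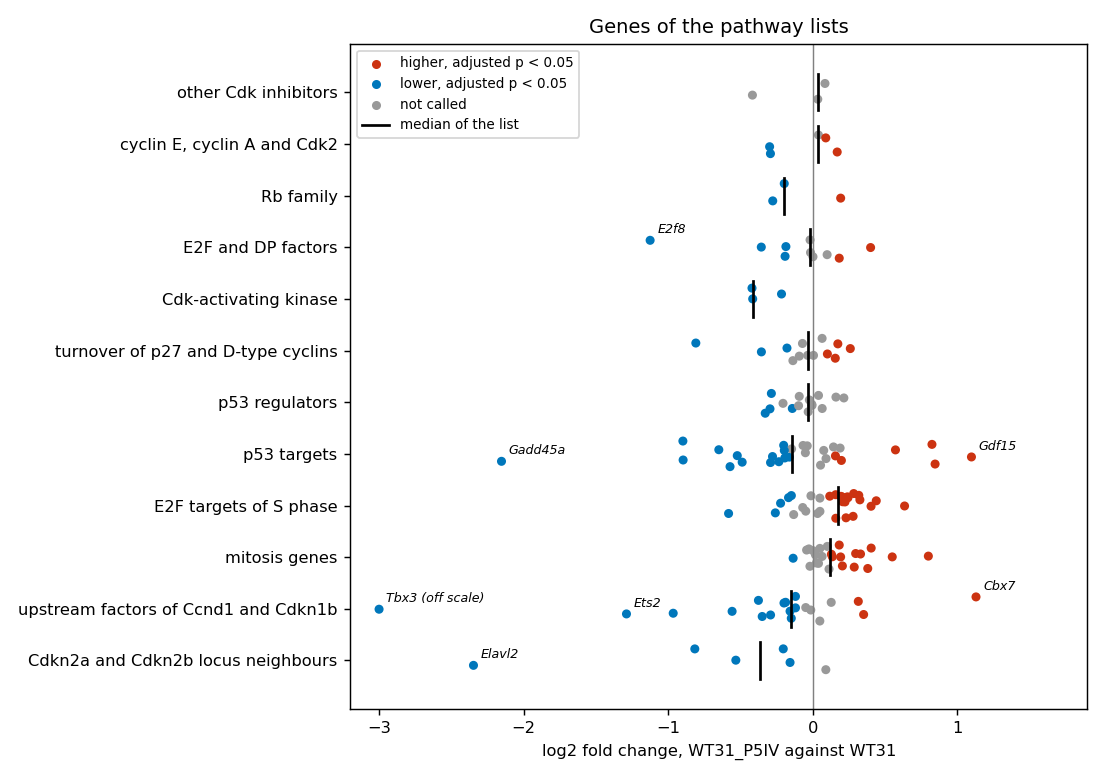
Log2 fold change of the tested genes of each pathway list, WT31_P5IV against WT31, 1 point per gene, coloured by call (edgeR, adjusted p of 0.05), with the median of each list as a black bar. Points of E2F targets and mitosis genes lie mostly to the right of 0 and those of the Cdk-activating kinase to the left, and Tbx3 lies beyond the left edge.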

How the data were processed

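RNA was sequenced from 5 libraries each of cultured WT31 and WT31_P5IV cells. Per the labels and the study's methods, the authors trimmed reads with Trim Galore 0.6.4 and pseudoaligned them to GRCm38.p6 with kallisto, and the deposited files hold estimated counts and TPM summed per gene. The annotation release and the strand setting of the counting are not given in the sources used here. GENCODE M21 holds 55144 of the 55385 identifiers, and its transcript lengths were checked against the deposited counts and TPM.

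Estimated counts were rounded, genes kept by filterByExpr (13620), libraries scaled by TMM, and groups compared with glmQLFit and glmQLFTest (edgeR 4.0.16, R 4.3.3, 2-sided), with Benjamini-Hochberg adjustment at 0.05. The 95% intervals are from the same fit. All 10 members passed the filter, so that the exact permutation test planned for untested members was not needed. TPM values, sums, shares and mean lengths were described without a test. Named genes are the 10 members, up to 4 genes per pathway list with the largest change among those with an adjusted p under 0.05 and a mean of at least 1 CPM, and a set named whatever its values. The members and lists were chosen with earlier results of these data known. Alternatives were DESeq2 1.42.0, limma 3.58.1 voom with and without TMM, other scalings and filters, a replicate block, a length offset, log2 TPM with pseudocounts of 0.1 and 1, and each library left out. Leaving out WT31 replicates 2 and 3 was chosen after seeing the data. On simulated counts for this comparison, the edgeR test recovered 93% of the genes changed by a log2 fold of 1 and 96% at 2, among 200 changed of 13461, with 8 false calls. The simulation did not cover smaller changes, such as those of all members except Ccnd2. Nor did it cover data in which 68.5% of tested genes are called. Nothing in the labels says that the libraries came from separate passaging series, and p-values measure the spread between these libraries.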

Additional observations from a re-analysis of the deposited data

How the results depend on the processing

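The calls of Cdkn2a, Cdkn2b, Cdkn1a, Ccnd1, Ccnd2, Ccnd3 and Cdk6 and the direction of the 6 that passed held under the 22 alternatives listed for this comparison and without WT31 replicates 2 and 3. Cdkn1b was no longer called on log2(TPM + 0.1) (0.0289, adjusted p = 0.569) or log2(TPM + 1) (0.0283), which left 0 members higher. Cdk4 turned to -0.26 on both scales (adjusted p = 2.97e-04 and 3.06e-04) and to -0.082 without WT31 replicates 2 and 3. Trp53 was called lower at -0.14 with voom without TMM, -0.15 with total-count scaling, -0.13 with all genes of at least 1 count, -0.27 on log2(TPM + 0.1), -0.26 on log2(TPM + 1) and -0.16 without WT31 replicates 2 and 3. With 1 library left out in turn, Trp53 ranged from -0.12 to -0.0591 and was called only without WT31 replicate 2. The causes were not tested. The TPM scales moved the log2 fold changes of all genes by a median of -0.17 and -0.16 per gene, and the share of calls that were higher from 50.5% to 32.9% and 32.8%. The number of all genes past the filter, 1251, became 2332 with at least 1 count, 701 with at least 10 counts in every library and 465 on log2(TPM + 1). The replicate numbers of the titles did not pair the samples (correlations of same-numbered libraries from -0.10 to 0.18), and the replicate block gave 9380 calls against 9327 and the same calls of all 10 members. Depth limits Cdkn2a most, at 63 to 84 counts.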
